A study of Danio rerio with 6 samples.

Results

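The genes described here are 10 zebrafish genes of bone formation, chosen by name as osteoblast transcription factors, bone matrix proteins and proteins of mineralization. They were chosen with earlier results of these data known. All 10 have a row among the 32520 genes of the deposited RPKM table. Whole larvae were collected at 4 days post fertilization (dpf) and their RNA sequenced, with 3 WT pools (AB strain) and 3 *mgt* pools, each of 60 larvae. The *maggot* (*mgt*) line was recovered from an ENU mutagenesis screen, is kept in the AB background and carries mutant *plod3*, which encodes a lysyl hydroxylase that also glycosylates collagen. The labels call these larvae plod3 KO and the methods call them homozygous, although the allele the study describes is a missense change and the RNA-seq methods do not say which of the *maggot* alleles was sequenced. No larva was treated, and the WT pools are AB fish and are not described as siblings of the mutants.

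Bone is laid down by osteoblasts, which arise from mesenchymal cells under the control of Runx2 and then Sp7. They secrete a matrix of collagen and acidic proteins, and mineral forms in it once phosphate is released and pyrophosphate, an inhibitor of crystal growth, is removed. In larval zebrafish the first bones to ossify are in the head and the pectoral girdle, and the notochord sheath, pharyngeal teeth and otoliths mineralize as well. The question put to the RNA here was how these genes stood in *mgt* larvae, a line isolated for its skeletal phenotype.

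Osteoblasts are a small part of a whole larva, and the RPKM of the 3 osteoblast transcription factor genes was below 1 in every WT library. RPKM is a read count scaled to gene length and to the size of the library, so it can be compared between genes. In these libraries an RPKM of 1 stood for 38.4 to 50.3 reads per kilobase, as read from the steps between values of very short genes. Of the 10 genes, 9 had reads in every library and *bglap*, the osteocalcin gene and a marker of mature osteoblasts, did not. WT replicate 1 stood apart from the other WT replicates, with a median log2 difference of 0.28 from their mean over all genes tested, so its value, or the difference without it, is given for each of the 10 genes. Every WT pool has one batch number in the labels and every *mgt* pool another, so batch and genotype cannot be told apart. The labels name the pools biological replicates and a legend of the study names them technical, so p-values measure only the spread between these pools. The mutated gene itself, *plod3*, had an RPKM of 16.8, 15.3 and 14.2 in WT replicates 1, 2 and 3 and of 23.9, 24.3 and 24.4 in *mgt* replicates 1, 2 and 3, and an RNA level of this kind cannot check a missense change.

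In *mgt*, the matrix genes *spp1*, *sparc* and *col10a1a* and the enzyme gene *phex* were lower, the regulator *runx2b* was higher, and *sp7*, *alpl* and *entpd5a* were not called. Genotypes were compared with limma on log2(RPKM + 0.5), over the 20435 genes whose RPKM averaged 0.5 or more across all 6 libraries. A gene was called when its Benjamini-Hochberg (BH) adjusted p was under 0.05 and one group exceeded the other by 25% or more on that scale. Of the 10 genes, 8 passed the filter on low values, and *runx2a* and *bglap* did not. Among these 8, 4 were called lower, where 15.6% of all genes tested were called lower. Only *runx2b* was called higher, where 31.8% of all genes were. The same 4 genes lay below every WT library in every *mgt* library, as did 21.6% of all genes, and *runx2b* lay above, as did 41.7%. The median log2 difference was -0.27 over the 8 genes and 0.29 over all genes tested. Against WT replicate 1 alone, the median over all genes tested was 0.037, so the 0.29 rests on the other WT replicates. Relative to the 0.29 of all genes, *runx2b* stood at 0.57, *sp7* at -0.14, *alpl* at -0.18, *entpd5a* at -0.40, *phex* at -0.72, *col10a1a* at -0.85, *sparc* at -0.86 and *spp1* at -1.03. Without WT replicate 1 the counts were again 4 lower and 1 higher. The count called lower was 2 without WT replicate 2, 3 without WT replicate 3, 1 without *mgt* replicate 1, 1 without *mgt* replicate 2 and 2 without *mgt* replicate 3, and *runx2b* was called higher in each of these fits. When a difference of 2.38-fold in RPKM + 0.5 was required, which 10.6% of all genes passed, 0 of the 8 were called. On that scale the largest of their limma log2 differences was 0.86. Larvae were sequenced whole, so different numbers of osteoblasts, different RNA per osteoblast and changes in other cells that express these genes cannot be told apart in these values.

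**Figure D1:**
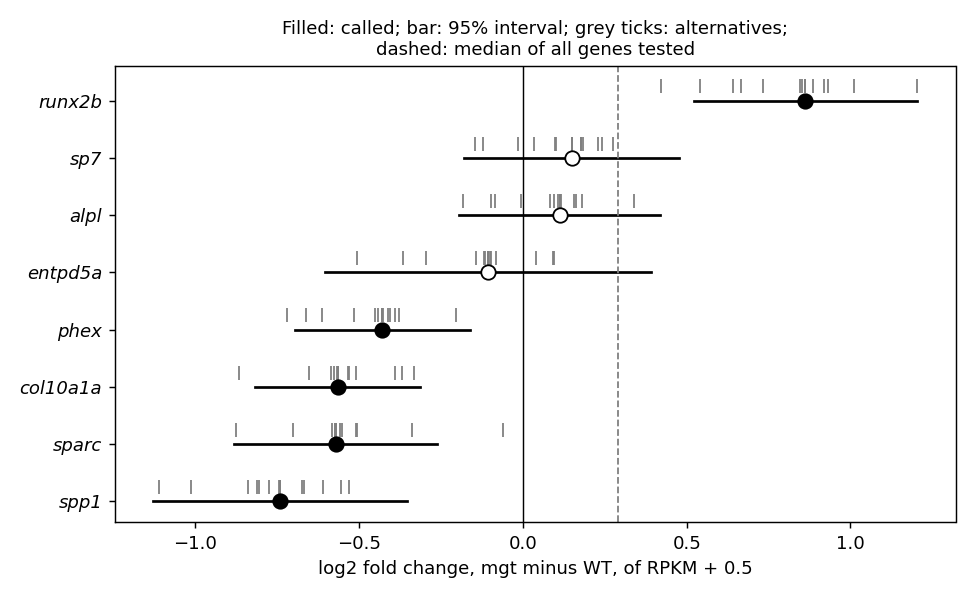
Log2 difference of *mgt* minus WT in RPKM + 0.5 for the 8 genes that passed the filter, with its 95% confidence interval from limma (3 pools per genotype). Filled points were called, open points were not, grey ticks are the values under the alternative settings, and the dashed line is the median of 0.29 over all genes tested. The values run from -0.74 for *spp1* to 0.86 for *runx2b*.

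Of the transcription factor genes, *runx2b* was called higher, *sp7* was not called and *runx2a* was too low for the main fit. Zebrafish have a pair of *RUNX2* genes, and both encode Runt-domain factors that commit mesenchymal cells to the osteoblast lineage. For *runx2b* (ENSDARG00000059233, chromosome 20, 43994848 to 44090660 of GRCz11) the RPKM was 0.69, 0.71 and 0.42 in WT replicates 1, 2 and 3 and 1.43, 1.52 and 1.54 in *mgt* replicates 1, 2 and 3. The groups did not overlap, and the *mgt* libraries lay close together. Its mean rose 2.47-fold, from 0.607 ± 0.162 (SD, n = 3) to 1.497 ± 0.0586 (SD, n = 3), which is a log2 difference of 0.86 with a standard error of 0.14 (limma, BH-adjusted p = 0.0056). It was called in all 17 alternative fits. The gene spans 95.8 kb. With the trend of log2 value with gene span subtracted inside each library, its difference was 0.42 (limma, BH-adjusted p = 0.042), and with quantile normalization it was 0.54.

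The paralog *runx2a* (ENSDARG00000040261, chromosome 17, 5351922 to 5516693) was weaker, with an RPKM of 0.28, 0.13 and 0.09 in WT and of 0.40, 0.47 and 0.59 in *mgt*. The highest WT value lay under the lowest *mgt* value (p = 0.10 in a two-sided exact permutation test, the least that 3 against 3 can give). These values stood for 4.52 to 24.0 reads per kilobase of the length behind RPKM, which is not given, so the number of reads is not known. The mean of 0.327 kept the gene out of the main fit. Fitted with no filter, its log2 difference was 0.57 with a standard error of 0.13 (limma, BH-adjusted p = 0.043). That call did not last. Of 12 further fits with no filter, chosen after seeing the data, 5 kept it, the BH-adjusted p from limma ran from 0.0095 to 0.63, and the difference was -0.054 once the trend with gene span was subtracted. This gene spans 164.8 kb, the longest of the 10.

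Osterix, encoded by *sp7* (ENSDARG00000019516, chromosome 6, 58622831 to 58674160), acts after Runx2 and is needed for osteoblasts to mature. Its RPKM was 0.61, 0.68 and 0.40 in WT and 0.63, 0.63 and 0.76 in *mgt*. The groups overlapped, with WT replicate 3 the only library below 0.6. In RPKM + 0.5 the log2 difference was 0.15, with a 95% interval of -0.18 to 0.48 (limma, BH-adjusted p = 0.38). A fall below -0.18 or a rise above 0.48 lies outside it on that scale only. At this low RPKM the added 0.5 shrinks differences, and with 0.1 added the difference was 0.24 with a standard error of 0.225. The sign turned to -0.015 with median-of-ratios factors, -0.15 with quantile normalization and -0.12 with the span trend subtracted. The gene had 20.1 to 30.9 reads per kilobase in these libraries.

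The 3 matrix genes that could be tested were all lower in *mgt*. SPARC, or osteonectin, is a secreted glycoprotein that binds calcium and collagen and is made in many tissues besides bone. For *sparc* (ENSDARG00000019353, chromosome 14, 25937948 to 25956860) the RPKM was 361.8, 476.2 and 473.5 in WT replicates 1, 2 and 3 and 292.7, 295.8 and 286.2 in *mgt*. WT replicate 1 lay between the other WT libraries and the *mgt* libraries. The mean was lower in *mgt*, at 292 ± 4.94 (SD, n = 3) against 437 ± 65.3 (SD, n = 3), a log2 difference of -0.57 with a standard error of 0.13 (limma, BH-adjusted p = 0.015). Against WT replicate 1 alone the difference was -0.31, and against WT replicates 2 and 3 it was -0.70. The call was absent without WT replicate 2 (-0.51) and without each *mgt* replicate in turn (-0.58, -0.58 and -0.56), and quantile normalization brought the difference to -0.062 (limma, BH-adjusted p = 0.53).

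Type X collagen is a short-chain collagen made in fish by osteoblasts and by maturing cartilage. The *col10a1a* gene (ENSDARG00000054753, chromosome 17, 15542077 to 15546862) had an RPKM of 161.1, 155.2 and 131.6 in WT and of 95.6, 102.2 and 103.5 in *mgt*. No *mgt* library reached the lowest WT library. The mean fell from 149 ± 15.6 (SD, n = 3) to 100.4 ± 4.20 (SD, n = 3), 1.49-fold, which is a log2 difference of -0.57 with a standard error of 0.11 (limma, BH-adjusted p = 0.0082). Of the 17 alternative fits 16 kept the call, and the exception was rescaling each library to the same summed RPKM (-0.33, limma, BH-adjusted p = 0.068). WT replicate 1 had the highest value of the 6, so the difference from that library alone was larger, at -0.68.

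Osteopontin, the product of *spp1*, is an acidic phosphoprotein that binds bone mineral, and it is made by macrophages in mammals as well. The RPKM of *spp1* (ENSDARG00000044276, chromosome 10, 15120711 to 15128771) was 6.85, 5.51 and 6.11 in WT replicates 1, 2 and 3 and 2.81, 3.66 and 4.04 in *mgt*. The groups were apart. In RPKM the *mgt* libraries differed among themselves about as much as the WT libraries did. On the log2 scale they differed more, with an SD of 0.235 in *mgt* and 0.145 in WT. The mean fell 1.76-fold, from 6.16 ± 0.671 (SD, n = 3) to 3.50 ± 0.630 (SD, n = 3), a log2 difference of -0.74 with a standard error of 0.16 (limma, BH-adjusted p = 0.014), the lowest of the 8 genes tested. It was called in 15 of 17 alternative fits, and missed the threshold without *mgt* replicate 1 (-0.61, limma, BH-adjusted p = 0.053) and without *mgt* replicate 2 (-0.78, limma, BH-adjusted p = 0.052).

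Osteocalcin, a small protein whose glutamates are carboxylated so that it binds calcium, was close to undetected. The *bglap* gene (ENSDARG00000058414, chromosome 3, 1405504 to 1408487) was listed at 0 in WT replicates 1 and 3 and in *mgt* replicate 3, and at 0.06 in WT replicate 2, 0.19 in *mgt* replicate 1 and 0.07 in *mgt* replicate 2. No fold is given for so few reads. A difference in *bglap* was not detectable at this depth, and its defining role as a mature osteoblast marker could not be used to check these larvae.

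**Figure D2:**
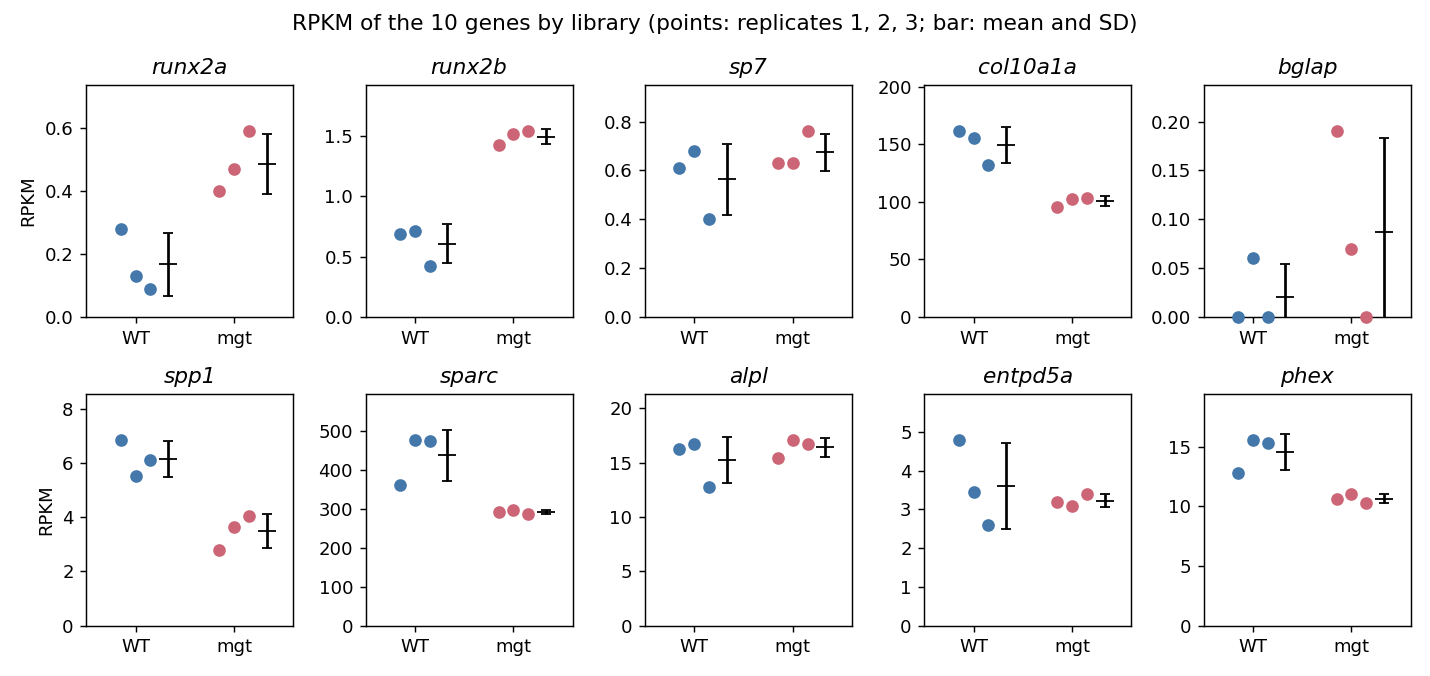
RPKM of each of the 10 genes in each library, with WT in blue and *mgt* in red, points in the order of replicates 1, 2 and 3, and the black bar at the mean ± SD of 3 pools. Each axis starts at 0, where the SD bar of *bglap* is cut off, and has its own scale, from below 0.2 for *bglap* to 476.2 for *sparc*. The groups stand apart for *runx2a*, *runx2b*, *col10a1a*, *spp1*, *sparc* and *phex* and overlap for *sp7*, *alpl*, *entpd5a* and *bglap*.

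Of the enzyme genes, *phex* was called lower, and *alpl* and *entpd5a* were not called. PHEX is a membrane endopeptidase of bone cells, and in humans its loss raises the hormone FGF23 and causes phosphate wasting. For *phex* (ENSDARG00000062363, chromosome 24, 25404358 to 25442346) the RPKM was 12.8, 15.6 and 15.3 in WT and 10.6, 11.02 and 10.3 in *mgt*. The groups did not overlap, with WT replicate 1 again between the others. Its mean fell 1.37-fold, from 14.6 ± 1.54 (SD, n = 3) to 10.6 ± 0.352 (SD, n = 3). In RPKM + 0.5 the log2 difference was -0.43 with a standard error of 0.11 (limma, BH-adjusted p = 0.023). This was the least stable of the calls, since 7 of 17 alternative fits lost it. It was absent with rescaling to the same sum (-0.20, limma, BH-adjusted p = 0.14) and without any one replicate other than WT replicate 1, where the differences lay between -0.45 and -0.38. The difference was -0.25 against WT replicate 1 alone and -0.52 against WT replicates 2 and 3.

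Tissue-nonspecific alkaline phosphatase, encoded by *alpl*, splits pyrophosphate and so frees phosphate for mineral. The RPKM of *alpl* (ENSDARG00000015546, chromosome 11, 27968834 to 28010171) was 16.2, 16.7 and 12.8 in WT and 15.4, 17.1 and 16.8 in *mgt*. Only WT replicate 3 stood low, and the groups overlapped. The log2 difference was 0.11, with a 95% interval from -0.20 to 0.42 (limma, BH-adjusted p = 0.48). No alternative called it, and the scalings put it between -0.18 and 0.34.

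The product of *entpd5a* hydrolyses nucleoside diphosphates, and zebrafish that lack it form no mineralized bone. For *entpd5a* (ENSDARG00000053481, chromosome 17, 45030407 to 45040813) the RPKM was 4.79, 3.45 and 2.59 in WT replicates 1, 2 and 3 and 3.18, 3.09 and 3.41 in *mgt*. All *mgt* libraries lay inside the WT range, which was the widest of the 8 genes tested on the log2 scale (SD 0.39). The log2 difference of -0.11 had a 95% interval from -0.60 to 0.39 (limma, BH-adjusted p = 0.68), and it became 0.092 without WT replicate 1. One alternative called it lower, quantile normalization (-0.51, limma, BH-adjusted p = 0.015).

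Because RPKM is given per length, levels can be ordered between genes, although the length used is not given in the sources used here. The order by mean was the same in both genotypes, namely *sparc*, *col10a1a*, *alpl*, *phex*, *spp1*, *entpd5a*, *runx2b*, *sp7*, *runx2a* and *bglap*. In WT, *sparc* was above 99.5% of all genes in the table and *col10a1a* above 98.7%, whereas *sp7* was above 39.5%. Neighbours in the order whose libraries overlapped were *alpl* and *phex* and also *runx2b* and *sp7* in WT, and *spp1* and *entpd5a* in *mgt*. The *runx2b* and *sp7* levels, interleaved in WT, were thus apart in *mgt*, where the lowest *runx2b* library (1.43) was above the highest *sp7* library (0.76).

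Set against *sp7* in the same library, in RPKM as deposited, *col10a1a*, *spp1* and *sparc* stood lower in *mgt* and the Runx2 genes higher. The log2 ratio of a gene to *sp7*, each with 0.5 added, compares genes inside a library, and all these ratios share the *sp7* values. The ratios were taken from RPKM as deposited, and normalization that reshapes a library can change them. With quantile normalization the *mgt* minus WT difference was -0.062 for *sparc* and -0.15 for *sp7*, so *sparc* was then not lower relative to *sp7*. For *col10a1a* it was 7.19, 7.04 and 7.20 in WT replicates 1, 2 and 3 and 6.41, 6.51 and 6.37 in *mgt*, a difference of -0.71. WT replicate 1 lay between the other WT libraries on this measure. The ratio of *spp1* was lower by a mean of -0.89, that of *sparc* by -0.72 and that of *phex* by -0.58, and for *runx2b* it was higher by 0.71. In each of these genes the groups did not overlap (p = 0.10 each in the two-sided exact permutation test, again the least possible). The ratio of *entpd5a* was lower by -0.26, also without overlap, and its WT replicate 1 stood at 2.25 against 1.74 and 1.78. Without that library the *entpd5a* difference was -0.093. For *alpl* the groups overlapped, with a WT mean of 3.89 ± 0.025 (SD, n = 3) and an *mgt* mean of 3.85 ± 0.097 (SD, n = 3). The ratio of *runx2a* was higher by 0.42, and with no 0.5 added by 1.41, so its size depends on the added value. The other ratios moved too, with the same signs. With no 0.5 added, *runx2b* was at 1.05, *spp1* at -1.11, *sparc* at -0.86 and *col10a1a* at -0.855. On that scale *phex* was at -0.73, *entpd5a* at -0.405 and *alpl* at -0.17.

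**Figure D3:**
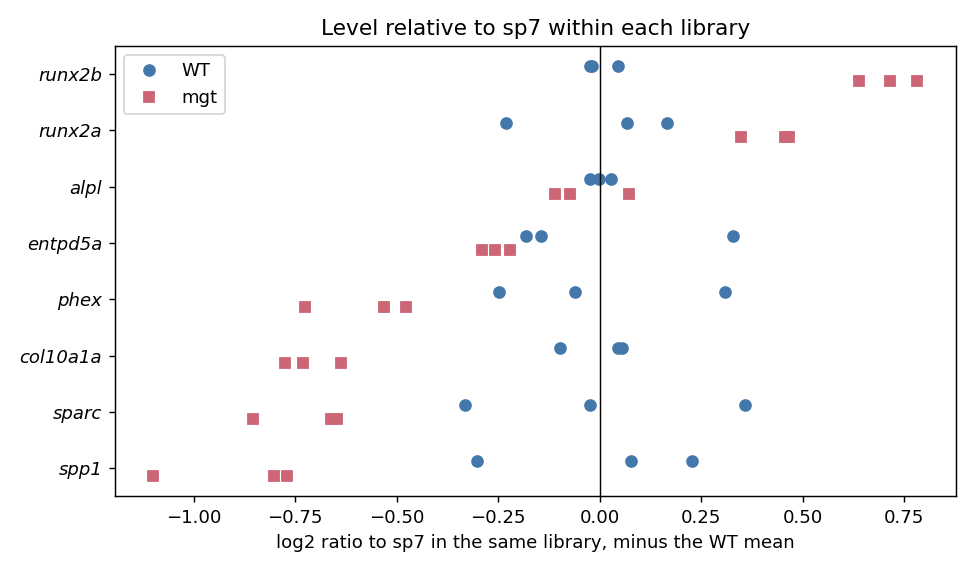
Log2 ratio of each gene to *sp7* in the same library, with 0.5 added to each RPKM and the WT mean of that gene subtracted. Circles are the 3 WT and squares the 3 *mgt* libraries. The *mgt* squares of *spp1*, *sparc*, *col10a1a*, *phex* and *entpd5a* lie below every WT circle, those of *runx2a* and *runx2b* above, and those of *alpl* on both sides.

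Related genes were counted in 9 lists, to be read against the 31.8% of all genes tested that were called higher and the 15.6% called lower. The lists were chosen with earlier results of these data known, so their shares describe them and test nothing. Over the lists together, 60.8% of 120 genes tested were called higher and 9.17% lower. A list of 23 regulators (BMP, hedgehog and retinoid signalling, and transcription factors of the skeleton) had 22 genes tested, of which 12 were called higher and 0 lower, with a median log2 difference of 0.48. Without WT replicate 1, 15 were called higher and 0 lower. In this list, and in the bone matrix, cartilage, notochord and macrophage lists described next, 0 genes were lower at an unadjusted limma p under 0.05 either. Among the genes called higher was *ptch1*, a receptor of hedgehog signals that is also a target of the pathway. Its RPKM was 6.06, 4.77 and 3.94 in WT and 15.6, 16.0 and 15.8 in *mgt*, without overlap. It rose by 1.61 on the log2 scale (limma, BH-adjusted p = 9.7e-04) and was called in all 17 alternative fits. A second row named *ptch1* was at 0 in every library.

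Of 16 further bone matrix genes, 10 were tested, and 6 were called higher and 0 lower, with a median of 0.60. Among them *sparcl1*, a relative of *sparc*, was called higher (1.31, limma, BH-adjusted p = 0.0034). Its RPKM was 2.03, 1.49 and 2.43 in WT and 5.33, 5.05 and 6.49 in *mgt*. The *col10a1a* paralog *col10a1b* was below the filter, at 0.2, 0.2 and 0.25 in WT and 0.61, 0.65 and 0.55 in *mgt*, without overlap. The main collagen of bone is type I, which skin and other connective tissue make too. The RPKM of *col1a1a* was 435.9, 567.9 and 479.3 in WT and 657.7, 628.5 and 599.6 in *mgt*, so every *mgt* library was higher, but the log2 difference of 0.35 missed the threshold (limma, BH-adjusted p = 0.052). It was called in 4 of 17 alternative fits (rescaling to the same sum, quantile normalization, the span trend subtracted and without WT replicate 2), and ran from 0.05 with median-of-ratios factors to 0.86 with quantile normalization. For *col1a1b* and *col1a2* the differences were 0.62 and 0.59 (limma, BH-adjusted p = 0.028 and 0.027), both called, and both lost with median-of-ratios factors (0.32 and 0.28), with no filter and without any one *mgt* replicate. The call of *col1a1b* was also lost with the span trend subtracted (0.44, limma, BH-adjusted p = 0.065). The *scpp9* and *scpp5* genes, of the secretory calcium-binding phosphoprotein family to which *spp1* belongs, were called higher. Of the same family, *scpp1* was not called but was lower in every *mgt* library (-0.32, limma, BH-adjusted p = 0.097). Its values were 1.70, 1.27 and 1.38 in WT and 0.90, 1.21 and 1.06 in *mgt*, and *scpp7* and *scpp8* were below the filter. The RPKM of *scpp9* was 0.46, 0.25 and 0.11 in WT and 9.49, 12.4 and 9.42 in *mgt*, and *scpp5* was at 8.15, 0.85 and 2.62 in WT and at 16.3, 14.3 and 14.9 in *mgt*. The call of *scpp9* (3.84, limma, BH-adjusted p = 1.3e-04) was kept in 17 of 17 alternative fits. That of *scpp5* (2.24, limma, BH-adjusted p = 0.026), whose WT libraries differ widely, was kept in 12, and was lost without WT replicate 3, without any one *mgt* replicate and with no filter.

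Genes that handle phosphate and pyrophosphate went both ways. Of 19 tested, 8 were called higher and 5 lower, with a median of 0.51. The sodium-phosphate transporter *slc34a2a* had an RPKM of 8.74, 14.6 and 11.2 in WT and of 0.81, 0.95 and 1.12 in *mgt*, a mean 12.0-fold lower (log2 difference -3.01, limma, BH-adjusted p = 2.6e-04). The alkaline phosphatase *alpi.2*, a relative of *alpl* named for the intestinal form, stood at 7.38, 11.7 and 8.76 in WT and at 0.99, 0.79 and 1.2 in *mgt*, a mean 9.36-fold lower (-2.70, limma, BH-adjusted p = 3.9e-04). Both genes were called in all 17 alternative fits, whereas *alpl* itself was in none. Their paralogs *slc34a2b* (1.171, limma, BH-adjusted p = 0.00501) and *alpi.1* (0.51, limma, BH-adjusted p = 0.015) were called higher, without overlap. The RPKM of *slc34a2b* was 3.93, 3.99 and 2.44 in WT and 8.2, 8.24 and 8.28 in *mgt*. From the same list, *slc20a1a*, *slc20a1b* and *slc20a2* were called higher too (0.913, 1.504 and 1.329 on the log2 scale). The hormone gene *fgf23*, also in this list, was called lower (-0.51, limma, BH-adjusted p = 0.021). Its RPKM was 0.88, 1 and 1.21 in WT and 0.59, 0.48 and 0.64 in *mgt*. That call was kept in 11 of 16 alternative fits, and any link to *phex* was not tested.

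Among genes that set body calcium, the hormone genes *pth1a* and *stc1l* had larger log2 differences than any of the 8 genes tested. Of 14 tested in a list of calcium hormones and calcium uptake, 8 were called higher and 3 lower. The parathyroid hormone gene *pth1a* had an RPKM of 0.03, 0 and 0.20 in WT and of 7.35, 8.62 and 8.53 in *mgt* (3.92 on the log2 scale of RPKM + 0.5, limma, BH-adjusted p = 7.8e-05). Its WT libraries were near 0, so no fold is given. The stanniocalcin gene *stc1l*, a hormone known in fish for limiting calcium uptake, rose from 1.57, 2.42 and 1.55 in WT to 13.5, 14.8 and 12.6 in *mgt*, 7.39-fold on the means (limma, BH-adjusted p = 2.5e-04). The calcium channel *trpv6* of skin ionocytes (picked with its value known) went from 16.9, 21.7 and 20.3 in WT to 6.98, 6.31 and 5.99 in *mgt* (-1.53, limma, BH-adjusted p = 5.6e-04). These 3 genes were called in all 17 alternative fits.

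Markers of other cells of the skeleton and its surroundings also differed between the genotypes, and their part in the values of the 10 genes was not tested. Of the 22 cartilage genes, all tested, 19 were called higher and 0 lower, with a median of 1.31 and a summed RPKM of 885.2 to 1135 in WT and of 2276 to 2378 in *mgt*. The cartilage proteoglycan gene *acana* rose 13.7-fold, from 2.90 ± 1.097 (SD, n = 3) to 39.8 ± 1.70 (SD, n = 3), and *matn3a*, a matrilin of cartilage, rose 6.13-fold. In the same libraries *col10a1a* was lower, and any link was not tested. All 6 notochord genes were called higher, with *ngs* and *cmn* in the lead (5.57 and 4.16), and their summed RPKM was 3.38 to 6.10 in WT and 143.7 to 152.0 in *mgt*. WT replicate 1 was the lowest library for *ngs*, at 0.27 against 1.93 and 2.97, and for *matn3a*, at 0.53 against 3.10 and 3.36. Without it the log2 difference of *matn3a* was 1.99 in place of 2.60, and that of *ngs* was 4.93.

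Of 15 osteoclast genes tested, 8 were called higher and 1 lower, with a median of 0.36 and a summed RPKM of 49.8 to 57.6 in WT and of 61.0 to 64.2 in *mgt*. Without WT replicate 1, 9 were called higher and 3 lower. Of the 15 genes, *nfatc1*, a factor of osteoclast formation that other cells also express, was higher by 0.97. The gene *acp5b*, a tartrate-resistant acid phosphatase, was lower by -0.83. The call of *acp5b* was lost without *mgt* replicate 2 or without *mgt* replicate 3. Its paralog *acp5a* was called higher (0.765, limma, BH-adjusted p = 0.030), a call kept in 9 of 17 alternative fits. The RPKM of *acp5a* was 0.63, 0.99 and 1.4 in WT and 2.33, 2.07 and 1.66 in *mgt*, without overlap. The cathepsin gene *ctsk* was not called (-0.32, limma, BH-adjusted p = 0.11). It was called lower in 1 of 17 alternative fits, without WT replicate 1 (-0.465, limma, BH-adjusted p = 8.2e-04). Of 4 macrophage genes tested, 2 were called higher (*mpeg1.2* by 1.99 and *marco* by 0.59) and 0 lower. Their summed RPKM was 10.6 to 12.2 in WT and 23.5 to 26.2 in *mgt*. The *spp1* values were lower in *mgt*, and any link was not tested. The call of *marco* was lost in 5 of the 17 alternative fits, among them median-of-ratios factors (0.34) and quantile normalization (0.20). Among the 8 fin fold and fibroblast genes, 4 were called higher and 2 lower, with a summed RPKM of 597.6 to 758.5 in WT and of 664.3 to 728.6 in *mgt*. The fibronectin gene *fn1b* was higher by 2.50 and the growth factor receptor gene *pdgfra* by 0.72, and the genes called lower, *and2* of the fin fold (-0.64) and *tnmd* of tendon (-0.54), were also lost in some alternatives. The call of *and2* was lost with quantile normalization (-0.17) and without *mgt* replicate 3 (-0.62), and that of *tnmd* with rescaling to the same sum (-0.32) and without any one *mgt* replicate. Another tendon gene of this list, *scxa*, was called higher (0.42, limma, BH-adjusted p = 0.026). Its RPKM was 3.6, 3.23 and 3.5 in WT and 4.59, 5.03 and 4.67 in *mgt*. No marker of the cartilage, notochord, osteoclast, macrophage or fin fold lists that has a row was at 0 in every library, and in the bone matrix list the osteocalcin-like gene *bglapl* was.

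The medians of these lists moved with the scaling, as did the median of all genes, which was 0.29 as deposited, 0.03 with median-of-ratios factors and -0.002 with quantile normalization. With median-of-ratios factors the fin fold and fibroblast median turned to -0.017, that of the bone regulators was 0.19 and that of the bone matrix genes was 0.30. With quantile normalization the phosphate and pyrophosphate median was 0.11 and the osteoclast median 0.017, while the cartilage median was 1.29 and the notochord median 3.19.

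**Figure D4:**
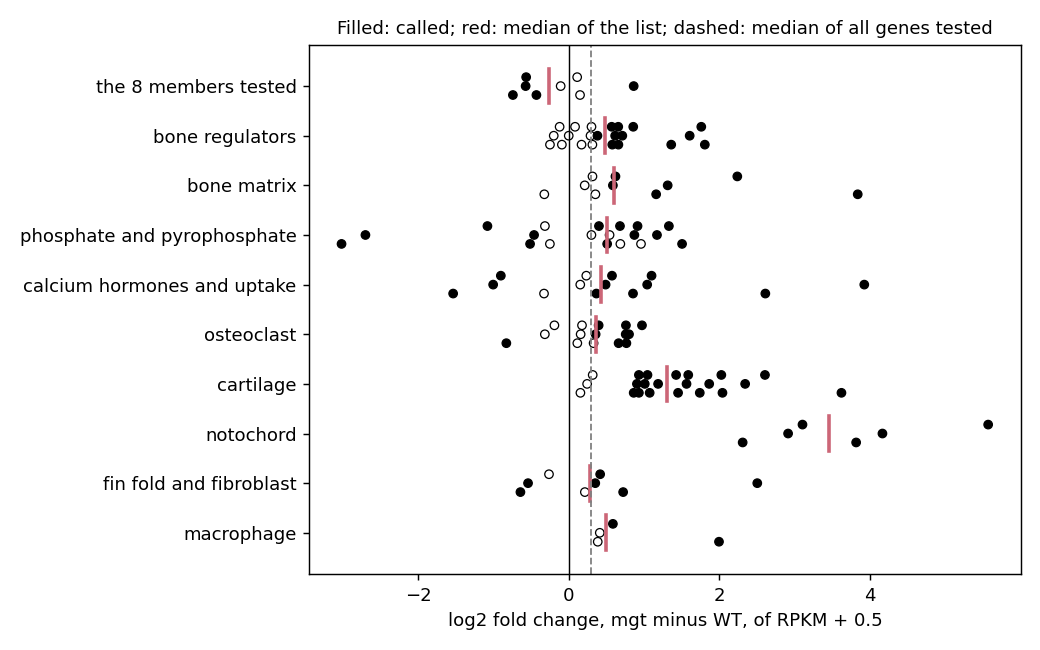
Log2 difference of *mgt* minus WT in RPKM + 0.5 for the 8 genes tested and for the genes tested in 9 related lists. Each point is a gene, filled where called, the red bar is the median of the list, and the dashed line is the median of all genes tested (0.29). The median of the 8 genes was -0.27, and those of the 9 lists ran from 0.28 for fin fold and fibroblast genes to 3.46 for notochord genes, in RPKM as deposited.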

How the data were processed

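The study sequenced RNA of whole larvae at 4 dpf in 3 WT and 3 *mgt* pools after ribosomal RNA depletion with one of a pair of kits, the kit of each pool not being given in the sources used here. The authors made the deposited RPKM, rounded to 2 decimals, from reads that passed FastQC and cutadapt 5.2 and were then mapped by STAR on GRCz11 and counted by HTSeq. The authors' deposited means, SDs and the ratio of the means were used in no result, and the WT mean covers 2 of the 3 WT libraries. The labels of WT replicate 3 give different numbers in its library name and its column name, and the column name was followed. The gene length behind RPKM and the strand setting of the counts are not given in the sources used here. Of 32521 lines, 1 repeated identifier was dropped.

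Values were log2(RPKM + 0.5), fitted with limma 3.58.1 (lmFit, eBayes with trend) in R 4.3.3, over the 20435 genes averaging an RPKM of 0.5 or more, with Benjamini-Hochberg adjustment over all of them. No batch term was fitted, since 0 batches hold both genotypes. Differences within a library and single genes were also set to exact permutation tests. Lists are described by counts and medians, with no set test. The 10 genes and the 9 lists (135 names) were chosen with earlier results of these data known. Named genes are the 10, *plod3*, the type I collagen genes and, in each list, up to 2 called genes of largest log2 difference that average an RPKM of 1 or more, with groups that do not overlap. The genes *trpv6*, *and2*, *tnmd*, *fgf23*, *scpp1*, *scpp7* and *scpp8* were picked with their values known. So were *slc34a2b*, *alpi.1*, *slc20a1a*, *slc20a1b*, *slc20a2*, *sparcl1*, *col10a1b*, *ctsk*, *acp5a* and *scxa*. One gene that the rule names is not reported here. The 19 alternatives changed the pseudocount (0.1, 1), the filter (none, 1), the scaling, the span trend (lowess, 0.3), the eBayes options, the block, the thresholds or left out 1 library. Of these, 17 are other fits and the rest change only the thresholds of the call. Library totals were read from genes spanning at most 160 bases, where 95.5% to 100% of values lay on single-read steps. The fit was tested on simulated data. Plots were drawn with matplotlib 3.10.9.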

Additional observations from a re-analysis of the deposited data

How the results depend on the processing

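Among the 8 genes tested, the count called lower (4) was 2 with rescaling to the same sum and 0 when a 2.38-fold difference was required, which 10.6% of all genes passed, and 1 to 4 with a replicate left out. The count called higher (1) was 0 at that fold and 1 with any replicate left out. With no filter it was 2, because *runx2a*, which is not among the 8, was then called too. Signs turned for *sp7* with median-of-ratios factors (-0.015), quantile normalization (-0.147) and the span trend subtracted (-0.122), for *alpl* with the same settings (-0.183, -0.085 and -0.097) and without WT replicate 3 (-0.005, in a range up to 0.18), and for *entpd5a* with rescaling (0.094), the span trend subtracted (0.041) and without WT replicate 1 (0.092, in a range down to -0.296). With no filter, *runx2a* was at -0.054 with the span trend subtracted. The cause was not tested.

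Over all genes, 6494 called higher became 4055 with no filter, 1687 at that fold and 2343 to 10654 with a replicate left out, the last without WT replicate 1. The 3194 called lower became 1907 with rescaling, 4959 with median-of-ratios factors, 5338 with quantile normalization, 487 at that fold and 1689 to 3698 with a replicate left out. In the related lists, 73 called higher became 30 at that fold and 49 to 78 with a replicate left out, and 11 called lower became 17 with median-of-ratios factors, 3 at that fold and 6 to 14. The median of all genes tested was 0.49 with rescaling and 0.03 with median-of-ratios factors. Ratios to *sp7* kept their sign in the 7 alternatives run for them (no added value, and each replicate left out), and were not recomputed under other scalings. None of the 7 reshapes a library, and with quantile normalization *sparc* fell less than *sp7* (-0.062 and -0.147).

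Replicate numbers did not pair the pools. Deviations of same-numbered pools correlated at -0.03, 0.03 and 0.027, and WT replicate 1 correlated best with *mgt* replicate 3. With the replicate number as a block, 3 genes were called lower and 1 higher, and *phex* had a BH-adjusted p of 0.053 from limma. Low RPKM limits *bglap*, *runx2a* and *sp7* most.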
